A study of Mus musculus with 6 samples.

Results

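The baseline promoter methylome of adipose tissue was described from the 3 control arrays of the series. All 3 of the 3 control-diet samples were used, of 6 arrays in all. The methods name 3 control mice for the 3 arrays, female C57BL/6J offspring at 32 weeks of age, each born to a dam on the control diet and fed the same control diet after weaning (CC). No diet is compared here. Genomic DNA was sheared, part of it was enriched with an antibody against methylated cytosine (methylated DNA immunoprecipitation, MeDIP) and labeled with Cy5, and the unenriched DNA (input) was labeled with Cy3. The array held 174638 promoter probes, and 174503 remained after those marked as outliers on any CC array were left out. Probes were joined into a promoter region where neighboring starts were no more than 500 bp from each other, and regions of at least 3 probes were kept, which gave 22580 regions on 21 chromosomes of mm9, with a median of 8 probes, a median width of 1617 bp and a median distance of 209 bp between neighboring probe starts. The files pair no region with a gene and give no direction of transcription, so regions are named by position, and the adipose label could not be checked against marker genes.

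Methylation of cytosine in CpG dinucleotides is a stable mark that is laid down by DNA methyltransferases and is commonly found in repeats, on the inactive X chromosome and in genes that are kept silent. Most CpG-rich promoters are known to be unmethylated in somatic tissue, while CpG-poor promoters are often methylated. MeDIP pulls down fragments according to how many methylated CpGs they hold, so a fragment with few CpGs gives a low MeDIP signal whether or not these are methylated, and a log2(MeDIP/input) is not a percentage of methylation. With log ratios centered on the median probe of each array, a value of 0 stands for the median probe, and a positive value for more MeDIP DNA per input DNA than at that probe.

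Single probes ranged widely around the median of their array. The interquartile range of the probes was 2.08, 2.05 and 2.01 log2 units on CC replicates 1, 2 and 3. The lower tail was the longer one, with the 5th percentile of probes at -3.04 ± 0.05 (SD, n = 3) and the 95th at 1.87 ± 0.004 (SD, n = 3). Averaged over the probes of a region, the values were narrower and lay mostly below the median probe. The median region was at -0.16, -0.15 and -0.14 on the 3 arrays, the 5th percentile at -1.55 ± 0.04 (SD, n = 3) and the 95th at 0.78 ± 0.01 (SD, n = 3). By limma against the array median, 12352 of the 22580 regions (54.7%) were lower and 8011 (35.5%) were higher at a Benjamini-Hochberg adjusted p under 0.05. The region means of the 3 arrays differed so little (median SD 0.05) that 90.2% of all regions passed in one direction or the other, and the limma test against a 2-fold ratio is therefore the more selective one. By that test, 2211 regions (9.79%) were more than 2-fold below the median probe and 279 (1.24%) more than 2-fold above it. The split of higher against lower calls moved with the processing. Higher calls made up 39.3% of the calls here, 55.8% when arrays were centered on the mean, 51.1% after normexp background correction and 50.9% with the median over the probes of a region. In the plot of region means, the left tail reached beyond -5 on each array and the right tail ended near 2.5.

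**Figure D1:**
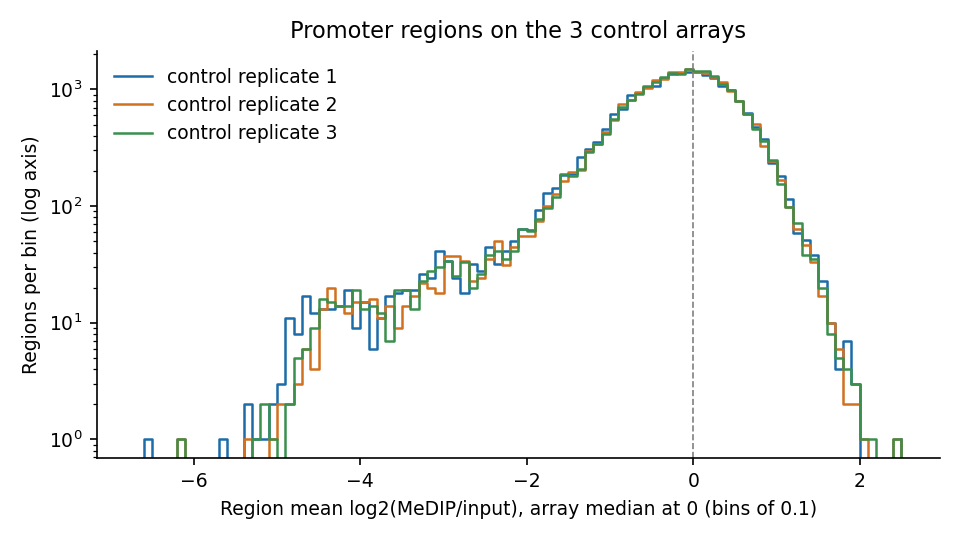
Number of promoter regions (log axis) in bins of 0.1 of the region mean log2(MeDIP/input), 1 line for each of the 3 CC arrays, with the median probe of each array at 0 (dashed line). The 3 lines run together, with medians at -0.16, -0.15 and -0.14, and the tail below -2 holds 2.88% ± 0.16 (SD, n = 3) of the regions.

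Most of the variation lay between probes of the same region and not between regions. On average over the 3 arrays, the variance between regions was 0.28 ± 0.02 (SD, n = 3) in squared log2 units. The variance between the probes of a region was 2.05 ± 0.04 (SD, n = 3) in the same units. Both are absolute variances and not shares of the total. They correspond to an SD of 0.53 between regions and of 1.43 between the probes of a region. Probes on both sides of the array median were present in 21467 regions (95.1%). Regions whose probes all lay on one side of it on all 3 arrays were few, with 344 above it (1.52%, median 4 probes) and 769 below it (3.41%, median 5 probes). The SD of the region means was 1.09 among regions of 3 to 4 probes, 0.72 among those of 7 to 9 and 0.44 among those of 15 or more, so that extreme means were more frequent where few probes were averaged. Neighboring probes of a region correlated across probe pairs at 0.20, 0.18 and 0.18 on the 3 arrays. The mean fell to 0.13 for probes 2 steps apart and to 0.04 for probes 6 steps apart, at a median distance of 1327 bp. Among direct neighbors the correlation did not fall with distance, at 0.15 for starts 150 to 200 bp apart and 0.20 for starts 400 to 500 bp apart. In the authors' processed values of the same arrays, neighboring probes correlated at 0.66, with 0.74 at 150 to 200 bp and 0.26 at 400 to 500 bp. Whole regions correlated with the next region on the chromosome at 0.36 ± 0.02 (SD, n = 3) where less than 5000 bp lay between them. The correlation was 0.40 ± 0.02 at 5000 to 20000 bp, 0.47 ± 0.02 at 20000 to 100000 bp and 0.38 ± 0.01 at 100000 to 1000000 bp (SD, n = 3 each). These are descriptions across probes and regions of the same arrays, which share probe design and input signal and are not independent replicates.

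Among the 16530 regions with at least 5 probes and an input signal well above background for each of them on every CC array, the highest lay on chromosome 10 from 62891574 to 62892980. It was at 1.83, 1.78 and 1.84 on the 3 arrays (limma, standard error 0.03, adjusted p = 3.71e-08 against a 2-fold ratio). The region was chosen for its high mean, so this p-value is no separate support for it. Of its 7 probes, 1 was as high as 4.18 and 1 as low as -0.16, so the region mean was raised by some of its probes and not by all of them. The next was a region of 5 probes on chromosome 9 from 44142341 to 44143210, at 1.77, 1.66 and 1.75, with probes between 0.34 and 3.62. The last of these 3 lay on chromosome 2 from 33286350 to 33287378, at 1.68, 1.72 and 1.52. Its 5 probes were all of 45 bases, and with probe means of 0.70 to 2.32 it was the most even of them. In all 3 regions every probe was well above background in both channels.

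The lowest regions lay much further from the median probe than the highest ones, and all 3 had a bright input channel. Input is the denominator of the ratio they were chosen by, so a bright input is in part set by that choice. A region of 9 probes on chromosome 5 from 14978403 to 14980106 was at -5.66, -5.32 and -5.23. Its mean input signal was 7556 intensity units against a MeDIP signal of 175, while the median promoter region outside the low tail had 578 and 518. For 4 of its 9 probes, MeDIP was on no array well above background (called dim below), so the ratio of those probes is limited by background. A region of 8 probes on chromosome 7 from 66933838 to 66935376 was at -5.22, -4.81 and -4.77, with input at 21744 and MeDIP at 699. In MeDIP, 7 of its 8 probes were well above background on all arrays and the last one, at -7.41, on 1 array. Its first 2 probes were at -1.24 and -2.17, and the other 6 lay between -7.55 and -4.23. A region of 8 probes on chromosome 4 from 146063414 to 146065201 was at -5.05, -4.76 and -4.71, and 3 of its probes were dim in MeDIP on all arrays. On each of these 3 regions CC replicate 1 was the lowest array.

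The low tail was not spread evenly over the genome. A mean below -2, a limit set after the distribution of the values had been seen, was found for 649 regions (2.87%) on 20 chromosomes. Their median was -2.90, with an input signal of 1672 and a MeDIP signal of 179. Of these regions, 412 (63.5%) were among the 2258 regions with the brightest input when regions were ranked by input into 10 groups of equal size. In that group 18.2% of the regions were below -2, against 0.66% to 2.75% in each of the other 9 groups. Of 2329 windows of 1000000 bp that held any region, 2098 held none below -2. By contrast, 354 of them (54.5%) lay in 24 stretches made of neighboring windows with at least 5 such regions per window. The largest stretch lay on chromosome 7 from 20000001 to 25000000, where 94 of 143 regions were below -2. The median of those 94 was -3.88, -3.64 and -3.71 on the 3 arrays, with input at 1906 and MeDIP at 148, when compared to 629 and 502 on the rest of the chromosome. A second stretch on chromosome 7, from 7000001 to 12000000, held 36 of 51 regions below -2. On chromosome 2 from 175000001 to 178000000 these were 30 of 34 regions, and on chromosome 4 from 60000001 to 62000000 they were 19 of 22. On chromosome X from 30000001 to 32000000, all 12 regions were below -2, with medians of -4.59, -4.31 and -4.36 and an input signal of 4235, and on X from 3000001 to 4000000 all 8 were. In all 24 stretches the median input of the regions below -2 was above that of the rest of the chromosome. Input is the denominator of the ratio that selected these regions, so a brighter input in them is in part set by the selection, and its part in the low ratios was not tested. In the regions below -2, on average 52.3% of the probes were well above background in MeDIP on all arrays, so that the ratios of the others are limited by background.

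The log ratio fell with the length of the probe at every step but 1, a slight rise from -1.16 at 57 bases to -1.14 at 58 bases. Probe length varies from 45 to 60 bases in this design, and in designs that match probes by melting temperature the longer probes hold fewer G and C bases. Probe sequences were not used here, so base composition was not measured. Probes of 45 bases, which were 49.9% of all probes, had medians of 0.54, 0.50 and 0.48 on the 3 arrays. Those of 50 bases were at -0.56 ± 0.02 (SD, n = 3) and those of 55 bases at -0.87 ± 0.03 (SD, n = 3). Probes of 60 bases, 13.2% of all, had medians of -1.36, -1.22 and -1.25. The 60-base probes were therefore lower than the 45-base probes, with differences of -1.90, -1.72 and -1.74 on the log2 scale and a mean of -1.79 ± 0.10 (SD, n = 3). The arrays all had the same sign, which gives p = 0.25 by the exact two-sided sign-flip permutation test, the smallest p that 3 arrays allow.

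Both channels fell with length, and MeDIP fell by more. From 45 to 60 bases the median input signal went from 863 to 156 and the median MeDIP signal from 1274 to 34.8. Among 45-base probes 93.0% were well above background in MeDIP on all arrays, and among 60-base probes 23.2% were. Where the MeDIP signal is not significantly above background, the scanner software puts a replacement value close to its own error estimate in place of the signal. At least 1 array had such a value in MeDIP for 47.3% of the 60-base and 1.06% of the 45-base probes. Probes with only the MeDIP signal replaced had a median log ratio of -2.15 ± 0.08 (SD, n = 3), and those with both signals replaced of 1.19 ± 0.12 (SD, n = 3). When probes were limited to those well above background in both channels on every array, the 45-base probes were at 0.59 ± 0.03 (SD, n = 3), the 50-base probes at -0.03 ± 0.02, the 55-base probes at -0.01 ± 0.03 and the 60-base probes at 0.22 ± 0.05 (SD, n = 3 each). This limit keeps probes with a high MeDIP signal, 5268 of the 23012 probes of 60 bases and 80815 of the 87098 of 45 bases, so it raises the level of long probes by its own construction. The fall with length was then confined to the step from 45 to 50 bases among the 4 lengths compared, and the 60-base probes were lower than the 45-base ones by a mean of -0.37.

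**Figure D2:**
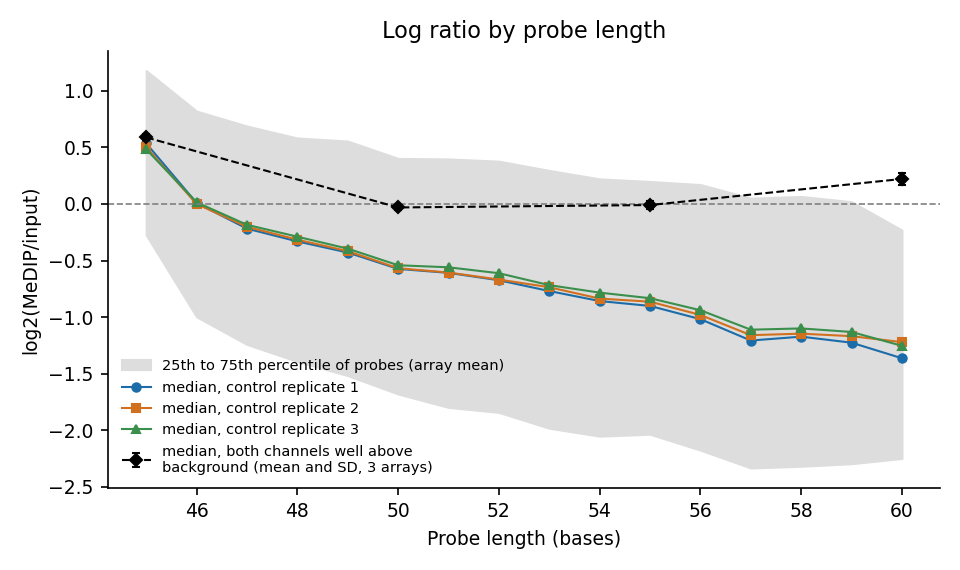
Median log2(MeDIP/input) of the probes of each length in bases, for each CC array (colored lines) and, for 4 lengths, among probes well above background in both channels (black diamonds, mean and SD over 3 arrays). The colored medians fall from 0.51 to -1.28 on average, while the diamonds lie at 0.59, -0.03, -0.01 and 0.22, and the gray band, from the 25th to the 75th percentile of the probes, is wider than the fall between most neighboring lengths.

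The same difference was present within regions, where long and short probes share a region and an array. They lie at different positions in the region, so probe length and position were not separated. Of 7765 regions with at least 2 probes of 55 to 60 bases and at least 2 of 45 to 49 bases, limma called the long probes lower in 6502 (83.7%) and higher in 799 (10.3%), so 94% passed in either direction. The median difference of long minus short probes was -1.34, with an interquartile range from -2.15 to -0.53. Limited to probes well above background in both channels, 1247 regions could be tested, and limma called the long probes lower in 685 and higher in 396. Region means followed the length of their probes. Regions with a mean probe length of 45 to 46 bases had a median of 0.31 ± 0.01 (SD, n = 3), and 4.54% of them were more than 2-fold above and 1.62% more than 2-fold below the median probe by limma. For regions with a mean length of 56 to 60 bases the median was -0.82 ± 0.06 (SD, n = 3), with 0.087% more than 2-fold above and 33.0% more than 2-fold below. Of all regions, 1.24% were more than 2-fold above and 9.79% more than 2-fold below.

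Along the promoter regions, the mean log ratio had a shallow dip in the middle and shoulders on both sides. In 16512 regions between 1300 and 2000 bp wide, the mean of the probes near the middle was -0.37, -0.34 and -0.34 on the 3 arrays. At 400 bp to the left it was -0.13, -0.12 and -0.12, and at 600 bp to the right -0.15, -0.14 and -0.14. At the outermost bins it fell again, to -0.34 ± 0.02 (SD, n = 3) on the left and -0.24 ± 0.01 (SD, n = 3) on the right. The whole range of this profile was 0.23, against an SD of 1.52 between single probes. Mean probe length had its own profile along the regions, with 49.7 bases in the middle, 48.7 at 400 bp to the left and 49.7 at the left end. After the median of each probe length had been removed, the range fell to 0.09, with the lowest bin still in the middle at -0.16. With this removal, the middle bin was below both end bins in each class of mean probe length up to 53 bases. In regions of 45 to 46 bases the left end was about as low, at -0.210 against -0.211 in the middle. The middle was not the lowest bin at 46 to 48 bases, at -0.215 against -0.226 at 200 bp to the right. The same was true at 48 to 50 bases, at -0.141 against -0.169. The middle bin was above both end bins in 1510 regions of 53 to 56 bases, at 0.01 against -0.04 and -0.02. The same held in 862 regions of 56 to 60 bases, at 0.25 against 0.05 and 0.002.

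**Figure D3:**
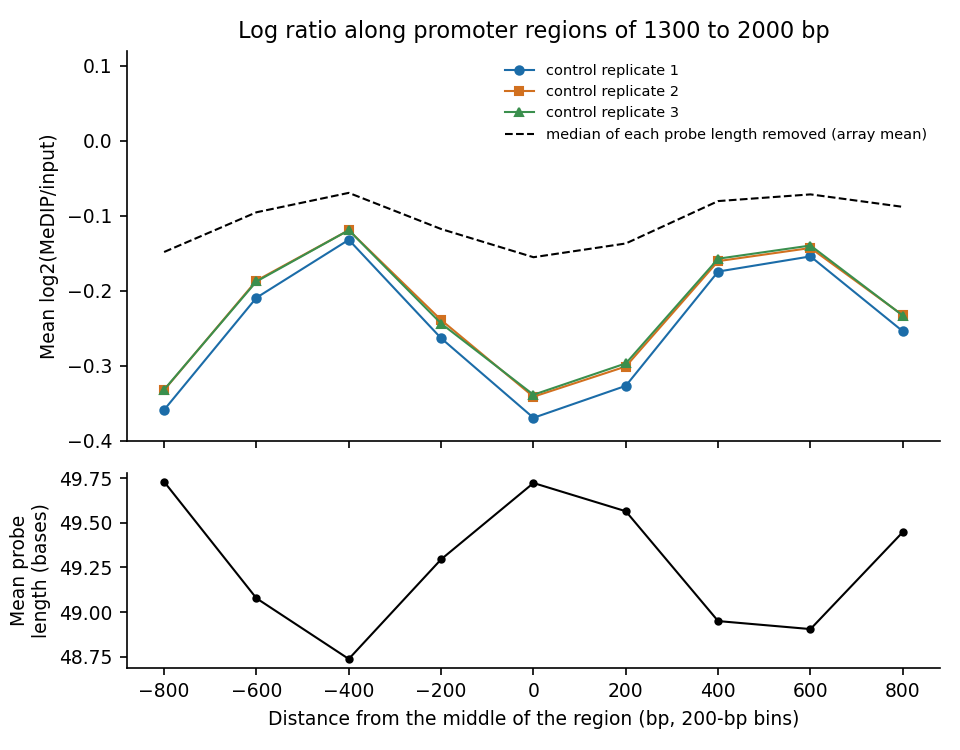
Top, mean log2(MeDIP/input) in bins of 200 bp by distance from the middle of regions 1300 to 2000 bp wide, for each CC array, and after removal of the median of each probe length (dashed, mean of 3 arrays). Bottom, mean probe length in bases on the same axis. The arrays run in parallel with their lowest point in the middle (-0.35 on average) and their highest 400 bp to the left (-0.12), and probes are shortest on average where the log ratio is highest.

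Region by region, no single shape prevailed. Each region was divided into 3 parts of equal length, and the middle part was compared with the outer parts in 18255 regions with at least 2 probes in each. By limma, 8127 regions (44.5%) were lower in the middle and 8349 (45.7%) were higher, so that 90.3% passed in either direction. The difference averaged over all regions was -0.039, -0.036 and -0.036 on the 3 arrays (exact two-sided sign-flip permutation test, p = 0.25), and the median over regions was 0.02. The sign of the average was reversed with start gaps of at most 300 bp. The difference followed probe length. In 5290 regions whose middle probes were shorter by over 2 bases on average, the middle was higher by 0.50 ± 0.02 (SD, n = 3), and 65.0% of these regions were called higher in the middle. In 5097 regions whose middle probes were longer by over 2 bases, the difference was -0.59 ± 0.02 (SD, n = 3), and 64.4% were called lower. In the 7868 regions between these limits the calls were balanced, with 44.1% lower and 44.9% higher.

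The regions with the steepest shapes had single probes or pairs of neighboring probes that stood apart from the others. On chromosome 11 from 58775983 to 58777617 the middle minus ends difference was -6.19, -5.94 and -5.97 on the 3 arrays. Its 2 lowest probes lay side by side at -4.15 and -5.76 and its highest probe was at 3.20, and 4 of its 8 probes were dim in MeDIP on all arrays, those 2 included. On chromosome 10 from 98724580 to 98726175 the difference was -5.38, -5.48 and -5.39, with 2 probes of 58 and 51 bases in the middle at -4.17 and -4.78 and 6 probes of 45 bases around them between -0.40 and 2.33. Both middle probes were dim in MeDIP on all arrays, so these differences are limited by background. In the opposite direction, the middle of a region on chromosome 3 from 96255817 to 96257505 was higher by 4.83, 4.94 and 4.71. Here the 2 middle probes of 45 bases were at 3.95 and 1.95, with MeDIP signals of 11721 and 4768, and were well above background on all arrays, whereas 3 of the 6 outer probes were not. On chromosome 4 from 3097936 to 3099693 the difference was 4.07, 4.22 and 4.03, and 6 of 8 probes were dim in MeDIP. Limma gave an adjusted p of at most 4.59e-16 for each of these 4 differences. The regions were chosen for large differences among those already called, so these p-values are no separate support.

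Levels differed little between autosomes. The chromosome medians over regions lay between -0.26 on chromosome 7 and -0.04 on chromosome 8, and the 3 arrays differed by an SD of at most 0.02 for any autosome. Chromosome 8 was at -0.04, -0.05 and -0.02, next to chromosome 5 at -0.06, -0.06 and -0.06 and chromosome 11 at -0.06, -0.07 and -0.05, and chromosomes 5 and 11 did not differ beyond the spread of the arrays. At the low end, chromosome 7 was at -0.27, -0.26 and -0.26, below chromosome 3 at -0.22, -0.20 and -0.21. Between these, chromosomes 15 and 17 had means over arrays of -0.06 and -0.08. Chromosomes 12, 10, 4 and 19 followed at -0.11, -0.11, -0.11 and -0.12, and chromosomes 2, 9, 14, 16 and 1 at -0.14, -0.14, -0.15, -0.15 and -0.15. Chromosome 18 was at -0.17, and chromosomes 13 and 6 at -0.20 and -0.20. Chromosome 7 also had the largest share of autosomal regions more than 2-fold below the median probe, with 371 of 2087 (17.8%) against 9.79% of all regions, and held 183 of the 649 regions below -2. These 183 were 8.77% of the regions of chromosome 7, against 2.87% of all regions. By share, chromosomes 4, 14 and 5 followed among the autosomes, with 70 of 1400 (5.0%), 35 of 816 (4.29%) and 51 of 1303 (3.91%). Chromosome 2 held 40 of 1905 (2.10%), below the share of all regions, and chromosome 15 held 2 of 859 (0.23%). Across the 19 autosomes the median followed mean probe length, with a Pearson correlation of -0.87 and a Spearman correlation of -0.89, given as a description because all chromosomes were read from the same arrays. After the median of each probe length had been removed, the autosomal medians spanned 0.16 in place of 0.23, and chromosome 7 was still the lowest at -0.16.

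**Figure D4:**
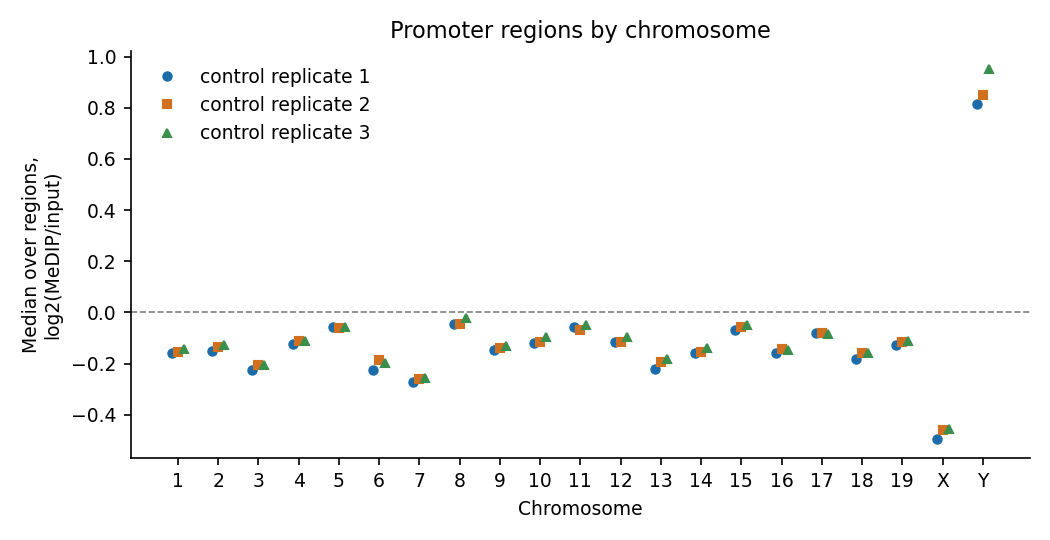
Median log2(MeDIP/input) over the promoter regions of each chromosome, with 1 point for each CC array. Autosomes lie between -0.27 and -0.02 on every array, the X chromosome between -0.50 and -0.46 and the Y chromosome, with 15 regions in female mice, between 0.82 and 0.95.

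Promoter regions on the X chromosome were lower than autosomal ones. In female cells one X chromosome is inactivated, and CpG-rich promoters of the inactive X are known to gain methylation. The 955 X regions had medians of -0.50, -0.46 and -0.46, and the difference from autosomes was -0.35, -0.32 and -0.33 (mean -0.34 ± 0.01, SD, n = 3, exact two-sided sign-flip permutation test, p = 0.25, the smallest possible). More than 2-fold below the median probe were 214 of them (22.4%), against 9.79% of all regions. The channels taken apart showed X probes at 0.071 ± 0.003 (SD, n = 3) above autosomal probes in input and at -0.43 ± 0.001 (SD, n = 3) in MeDIP, on the log2 scale. X probes were longer on average than those of any autosome, and at a fixed length the channels differed otherwise. Among 45-base probes, X was at 0.23 ± 0.01 in input and -0.11 ± 0.01 in MeDIP relative to autosomes, and among 60-base probes at 0.20 ± 0.02 and 0.08 ± 0.06 (SD, n = 3 each). The log ratio was lower on X by -0.28 ± 0.003 and -0.18 ± 0.02 (SD, n = 3 each) at these lengths, with input the larger of the channel differences at both. Each of these values is a difference of medians over probes. The channel differences therefore need not add up to that of the log ratio, and their order does not divide it between the channels. Input was also the larger at 50 bases, at 0.11 ± 0.02 against 0.03 ± 0.02 in MeDIP (SD, n = 3 each, 215 X probes). The order was reversed at 55 bases, at 0.02 ± 0.04 in input and 0.28 ± 0.02 in MeDIP (SD, n = 3 each, 171 X probes). The log ratio was lower on X at these lengths too, by -0.20 ± 0.005 and -0.12 ± 0.03 (SD, n = 3 each). With the median of each probe length removed, X minus autosomes was -0.17 over regions. X regions were lower than autosomal ones on each array in the 5 classes of mean probe length up to 56 bases, by -0.30 ± 0.03 in regions of 45 to 46 bases, -0.26 ± 0.02 at 46 to 48, -0.11 ± 0.01 at 48 to 50, -0.14 ± 0.02 at 50 to 53 and -0.37 ± 0.02 at 53 to 56 bases (SD, n = 3 each). In the class of 56 to 60 bases the arrays differed in sign, at -0.01, -0.05 and 0.06. The X difference was larger among regions with bright input. Input is the denominator of the ratio, so grouping by input in part sets the ratios, and its part in the X difference was not tested. Of the X regions 16.2% were in the group with the brightest input against 9.73% of autosomal ones, and there the X difference was -1.60 ± 0.07 (SD, n = 3). Outside that group it was -0.26 ± 0.02 (SD, n = 3), again lower on all 3 arrays.

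The Y chromosome served as a check of background, because female mice carry none. Its 99 probes lay at -1.57 ± 0.03 (SD, n = 3) relative to autosomal probes in the input channel. They were not silent, however, since 32, 29 and 26 of them were not well above background in input on the 3 arrays, and the others were. The 15 Y regions had median log ratios of 0.82, 0.85 and 0.95. The MeDIP signal of the Y probes was at -0.63 ± 0.02 (SD, n = 3) relative to autosomal probes, less far below them than the input signal was. Since the animals carry no Y chromosome, these positive ratios are no measure of methylation on it.

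The 3 CC arrays agreed closely, and they agreed more closely in MeDIP than in input. Region means of log2(MeDIP/input) differed between pairs of arrays by a median of 0.06, 0.05 and 0.05 for replicates 1 and 2, 1 and 3, and 2 and 3. After centering of the input and MeDIP signals on the median of each, the SD over arrays had a median of 0.10 per probe in input and 0.07 in MeDIP. Among the 129739 probes that were well above background in both channels on every array, the medians were also 0.10 and 0.07. Per region the medians were 0.05 in input and 0.03 in MeDIP, and MeDIP signals correlated across regions at 0.9985 to 0.9992 between arrays when compared to 0.9949 to 0.9963 for input. Of the 20604 regions with at least 5 probes, 72.9% had a larger range over arrays in input than in MeDIP. Of the 25 with the largest spread in the log ratio, all 25 did, with a median range of 0.55 in input and 0.06 in MeDIP, and in 22 of the 25 CC replicate 1 was the lowest array. Those ranked 2 to 6 of these had low signals on the centered scale, from -2.79 to -1.70 in MeDIP and from -2.93 to -0.33 in input. How far signals near background keep the MeDIP range small in such regions was not tested. The arrays were scanned on different days, and the sources used here do not say whether the immunoprecipitations were done together or whether each array had MeDIP DNA of its own mouse. The errors and p-values above therefore measure the spread between these arrays, which may be technical and need not be that between mice.

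The region with the largest spread between arrays was the last one tiled on the X chromosome, from 166416350 to 166418062. Its log ratio was -0.05, -2.01 and -1.52 on CC replicates 1, 2 and 3 (SD 1.02, against a median of 0.05 over all regions). On all 9 probes CC replicate 1 was the highest array. On the same centered scale, the input signal of the region was at -0.53, 1.48 and 0.98, while the MeDIP signal was at -0.61, -0.55 and -0.60. The difference thus lay in the input channel, where CC replicates 2 and 3 were brighter than CC replicate 1 on every probe, by 0.93 to 2.60 and 0.68 to 2.08 on the log2 scale. The 4 regions before it on the X chromosome had input ranges over arrays of 0.02 to 0.18, the nearest of them 98370 bp away. Scan day and array cannot be told apart here, and a cause was not tested. The second region by spread, on X from 57251341 to 57251927, was at -1.95, -0.41 and -0.19. Its 3 probes of 60 bases were dim in MeDIP on all arrays, so that its values are limited by background. The smallest spread was found on chromosome 6 from 83456464 to 83458053, where the 8 probes averaged 0.10 on each of the 3 arrays.

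**Figure D5:**
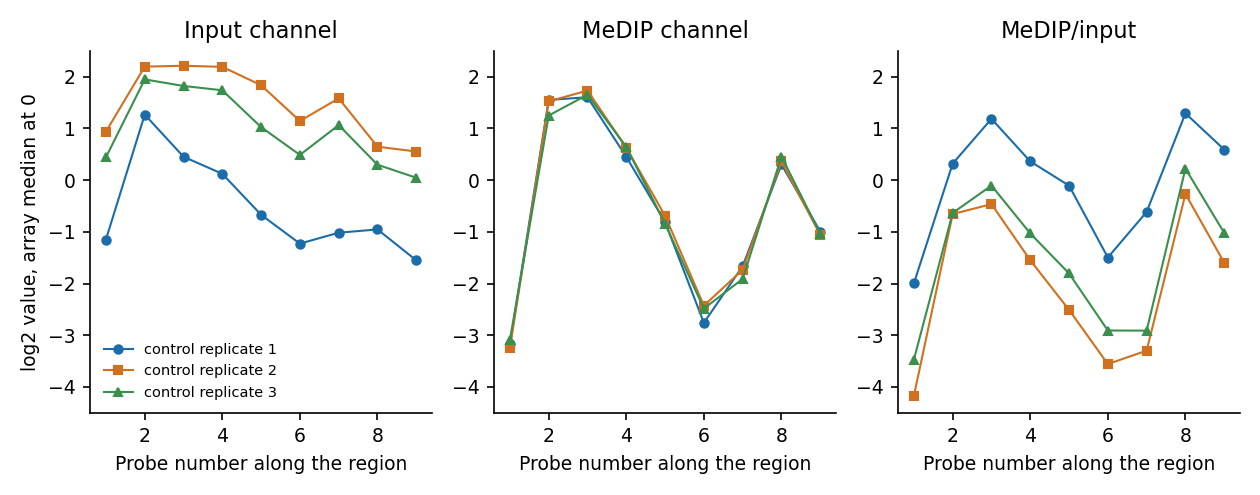
Signals of the 9 probes of the last X region in their order along the region, for each CC array, as input, MeDIP and log2(MeDIP/input), each on a log2 scale with the array median at 0. In input CC replicate 1 lies below the other arrays on every probe (region means -0.53, 1.48 and 0.98), in MeDIP the 3 lines overlap (-0.61, -0.55 and -0.60), and in the ratio CC replicate 1 lies above.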

How the data were processed

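MeDIP DNA (Cy5) and input DNA (Cy3) of 3 CC mice had been hybridized to 2-color promoter arrays, without a dye swap, so any dye effect is part of each ratio. The authors deposited scanner files of Agilent Feature Extraction 11.0.1.1 (build mm9), in which the intensity of each dye had been background-subtracted, spatially detrended and multiplied by 1 linear factor per dye. The log10 ratios deposited in the same files correlated with the log2 ratios used here at 0.999 or more. The table of the authors' processed log2 values, whose normalization is not given in the sources used here, served as an alternative.

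Log2 ratios of the processed intensities were taken for promoter probes, without the 5827 control features and the 135 outlier probes, and the median of each array was set to 0. Loess and quantile normalization were left out of the main values, since most probes of such arrays carry signal. Well above background were 74.9% to 75.9% of the MeDIP signals and 96.8% to 97.6% of the input signals, and 8.89% to 9.49% of MeDIP signals were replacement values. CC replicate 3 was scanned at a MeDIP detector voltage of 306 against 279. Region means were tested against 0 (R 4.3.3, limma 3.58.1, functions lmFit with eBayes or with treat at a log2 ratio of 1, Benjamini-Hochberg, threshold 0.05), and the script was tested on simulated data.

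The regions, lists and tests were chosen with earlier results of these data known. Regions were named by this rule: the 3 highest and 3 lowest among regions of at least 5 probes that were all well above background in input, and, without that filter, the 2 with the largest middle minus ends difference in each direction among those called with 1 sign on all arrays, the 2 with the largest and the 1 with the smallest spread between arrays. Every chromosome was named. The stretches below -2, the counts over the 25 regions of largest spread and the channels of the last X region were added after these values had been seen. Gene lists and marker genes were not analysed here, because the gene table used is on another build.

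The alternatives were normexp background correction (offset 50), loess, equal median absolute deviations, centering on the mean, probes well above background in both channels, outlier probes kept, the median over probes, gaps of at most 300 bp, at least 5 probes per region, removal of probe length medians, the authors' values, limma with trend and robust variance, and each array left out. Leaving out probes at the replacement value, and leaving out the 10% of probes brightest in input, were added after seeing the data.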

Additional observations from a re-analysis of the deposited data

How the results depend on the processing

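Under the alternatives with all arrays, the counts not given here stayed within 1.5 times the reported count. Regions more than 2-fold above the median probe numbered 176 with at least 5 probes per region, 783 with centering on the mean, 534 with the median over probes, 54 after normexp, 604 with gaps of at most 300 bp and 485 without the 10% of probes brightest in input. Those more than 2-fold below numbered 1197 after loess, 762 after normexp, 876 with probes well above background in both channels and 1315 with probe length medians removed. With probes above background in both channels, 4146 regions were higher and 3985 lower in their middle, of 9236 tested. Long probes were above short ones in 2542 regions after loess, 1280 after normexp and 396 with both channels above background, and below them in 4255 after loess, 685 with both channels above background and 3227 without replacement values. The average difference of middle minus ends was reversed, to 0.020, with gaps of at most 300 bp, and was otherwise -0.12 (median over probes) to -0.009 (both channels above background). The 60-base minus 45-base difference was -0.32 after loess, -0.58 after normexp, -0.37 with both channels above background and -1.21 without replacement values, and X minus autosomes stayed negative under all alternatives, at -0.37 with the median over probes, -0.16 after loess, -0.17 after normexp, -0.17 with both channels above background and -0.17 with length medians removed. Neighboring probes correlated at 0.66 in the authors' values, 0.24 after loess, 0.22 after normexp, 0.15 with both channels above background, 0.13 with length medians removed, 0.17 without replacement values and 0.15 without bright input. The SD of region means was 0.75 with at least 5 probes, 0.69 in the authors' values, 0.73 after loess, 0.88 with the median over probes, 0.55 after normexp, 0.62 with both channels above background, 0.68 with length medians removed, 0.83 with gaps of at most 300 bp and 0.75 without replacement values. Fewer regions or probes could be tested with both channels above background and without replacement values, and for the other changes the cause was not tested.

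With 1 array left out, 7646 to 7964 regions were above and 12072 to 12172 below the median probe, 243 to 273 more than 2-fold above and 2133 to 2171 more than 2-fold below, 7897 to 7973 lower and 8106 to 8209 higher in the middle, and long probes were above short ones in 714 to 840 and below them in 6411 to 6464 regions. The 60-base minus 45-base difference was -1.82 to -1.73, X minus autosomes -0.34 to -0.33, middle minus ends -0.038 to -0.036, the correlation of neighboring probes 0.181 to 0.191 and the SD of region means 0.776 to 0.795. No paired analysis was possible because only 1 group of arrays was described. Signal over background limits the values of long probes most, since 23.2% of the 60-base probes were well above background in MeDIP on all arrays.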
